A study of Mus musculus with 7 samples.

Results

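Both arrays from estrogen receptor knockout mice, 1 lacking ERα (αERKO, titled ESR1 KO) and 1 labelled as lacking ERβ (βERKO, titled ESR2 KO), formed 1 group that was set against the 5 arrays from mice with intact receptors, so that all 7 arrays of the series were used. All RNA came from mammary glands of female mice, 4 weeks of age, kept in serum-free organ culture. The knockout lines were made on a C57BL6/129SV background and their glands were cultured for 24 days. The wild-type (WT) arrays were C57 glands cultured for 24 days with the carcinogen 7,12-dimethylbenz[a]anthracene (DMBA), C57 glands after 10 days and after 24 days without it, Balb/c glands after 24 days, and Balb/c glands after 24 days with vitamin D5, whose dose the labels do not give. The protocol text shared by all samples gives DMBA at 2 µg/ml on day 3 for 24 h, and 2 forms of pretreatment of the mice, 1 µg estrogen with 1 mg progesterone for 9 days and 25 ng EGF with 1 mg progesterone for 5 days, without tying them to arrays. The study's text ties pretreatment with EGF and progesterone, and culture with the carcinogen, to its pooled WT, αERKO and βERKO glands, although the titles of the knockout arrays do not name DMBA. RNA of 5 mice was pooled for each knockout array and for the C57 array with DMBA, and pooling is not given for the other 4 arrays. According to the study's text the pooled WT and βERKO glands bore carcinogen-induced lesions and the αERKO glands did not, so that lesions and genotype cannot be told apart either. Each knockout array is a different genotype with no repeat, and the WT arrays differ in strain, culture time and treatment, so strain background and genotype cannot be told apart here, and every p-value measures the spread between these arrays alone.

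ERα and ERβ are ligand-activated nuclear receptors that bind estrogen response elements in DNA or attach to other transcription factors such as AP-1. In the mammary gland ERα in luminal cells drives ductal growth, in part through the EGF family ligand amphiregulin and through induction of the progesterone receptor, whereas ductal growth is largely kept when ERβ is absent. In organ culture the pieces of gland also hold the fat pad, vessels, nerves and any attached body wall.

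Values are log2 intensities of a probe over the median of all gene probes on its array, and WT values are given throughout in the order C57 with DMBA, C57 10-day, C57 24-day, BALB/c and BALB/c with vitamin D5. The scanner software flagged 68.4% to 74.2% of the 34967 gene probes on an array as good, meaning a signal over background, and all others are called near background here. The median intensity, after subtraction of a local background of 80 to 83, was 39.1 on the αERKO array, 42.3 on the βERKO-labelled array and 44.9 or more on the WT arrays. A probe was tested if it was good on both knockout arrays or on all 5 WT arrays, which left 23187 probes. It was called apart if its values on the knockout arrays did not overlap those on the WT arrays. Of the 7 arrays the αERKO array stood farthest from the others: its correlation with the WT arrays across 18695 probes good on all 7 arrays ran from r = 0.84 to 0.92, against 0.93 to 0.96 for the βERKO-labelled array, where probes are not independent replicates.

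The probes for the targeted genes did not check the labels. Esr1, which encodes ERα, gave -3.76 on the αERKO array and -1.72 on the βERKO-labelled array, against -1.02, -9.45, -3.96, -2.74 and -0.74. Its spot was good on the C57 array with DMBA and on the vitamin D5 array, and near background elsewhere, so that most of these values have no firm order. Esr2, which encodes ERβ, gave -1.67 on the αERKO array and 0.87 on the βERKO-labelled array, against -5.88, -1.69, -0.55, -2.86 and -1.87. The highest Esr2 signal therefore fell on the array labelled as its knockout, where the spot was good. This array is called by its label in what follows, and every direction below rests on it as labelled. The exact two-sided permutation test gave p = 1 for Esr1 and p = 0.19 for Esr2 (1 and 0.24 after adjustment over the 5 genes tested in this way, the other 3 being Pgr, Gper1 and Hspe1). With 2 arrays against 5, 21 splits exist and the smallest p this test allows is 0.095, so no single gene could pass 0.05 in it.

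Of the 23187 probes tested, 4127 were apart (17.8%), 2317 with the knockouts higher (9.99%) and 1810 with the knockouts lower (7.81%). Most of these differences were small: 1513 exceeded 2-fold as well, and the gap between the nearest knockout and WT values was over 1 on the log2 scale in 198 of those higher and 124 of those lower. Of the probes apart 56.1% were higher, a share that became 44.1% with an offset of 50 added to the intensities and 43.5% with normexp background correction. Limma, which compares group means against the pooled spread within both groups, called 224 probes at an adjusted p under 0.05 (0.966%), 124 higher (0.535%) and 100 lower (0.431%) in the knockouts. All 224 were also apart, with fold differences from 1.97 to 157 and a median of 5.46. The largest, at Thumpd1, is set by WT values near background, and only a lower bound of 62.8-fold can be given for it. Without the C57 array with DMBA 7636 probes were apart and 629 called, and without the αERKO array 8488 were apart and 131 called. Without the βERKO-labelled array 14873 were apart and 2482 called, the lone αERKO array then being assumed to vary like the WT arrays. Among probes good on all 7 arrays, 2945 of 18695 were apart (15.8%). Of the 224 probes called, 117 were good on all 7 arrays. Of the 124 called higher, 13 were near background on every WT array, and of the 100 called lower, 28 were near background on both knockout arrays. These passed the filter through 1 group alone, so nothing is read from their calls. A further 41 probes called higher and 25 called lower were good throughout 1 group and on part of the other. They too passed the filter through 1 group alone, so their calls are given below as descriptions only. At the edge of the rule the probe for Zbtb25 was apart by 0.0065% of intensity and that for Mcts1 overlapped by 0.0036%.

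Among probes with a RefSeq symbol and good on all 7 arrays, the widest gap downward was at Hspe1, the mitochondrial co-chaperonin that caps the Hspd1 folding chamber. Its probe gave 1.60 on the αERKO array and 2.23 on the βERKO-labelled array, against 7.55, 7.78, 8.02, 7.69 and 7.78. The WT arrays lay within a SD of 0.17 (n = 5) across both strains, both culture times and all treatments, and the knockouts lay 57.5-fold below their mean (log2 difference -5.85, SE 0.23, adjusted p = 0.000154 by limma). Leaving out any single array kept the difference between -6.16 and -5.53. Hspd1, the partner of Hspe1, gave 3.85 and 5.00 in the knockouts against 4.76, 4.92, 5.34, 4.45 and 4.81, so that its groups overlapped (difference -0.43, adjusted p = 0.54 by limma). Of other mitochondrial chaperones and proteases, Hspa9, Trap1, Clpp and Lonp1 overlapped too, with differences between -0.40 and 0.27. Hspe1 is represented by 1 probe, so no other probe for it bears on the value, and the sequence the probe targets was not examined here.

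Hspe1 and Hspd1 lie head to head, and their upstream windows in RefSeq (GRCm38.p6) overlap on chromosome 1. The window of Hspe1, from 55087898 to 55088197 on the plus strand, shares 285 of 300 bases with 1 window of Hspd1, from 55087883 to 55088182 on the minus strand, and 4 bases with another, from 55088194 to 55088493. The stretches below are shown because they lie in a window of both genes. The capitals mark the heat shock element, present as a pair of overlapping matches on opposite strands, and an estrogen receptor half-site (AGGTCA).
Hspe1, chr1:55088051-55088079, plus strand: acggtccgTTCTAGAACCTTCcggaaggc
Hspe1, chr1:55088056-55088084, plus strand: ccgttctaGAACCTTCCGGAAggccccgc
Hspe1, chr1:55088089-55088118, plus strand: cccgtgggtgaaAGGTCAagtggcgtcatt
A match to these letters is a description of sequence and was not tested as a binding site.

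A group of other genes shared the step seen at Hspe1, with WT arrays close together and both knockouts far below. Esrp1, an epithelial regulator of splicing, gave 0.83 and 1.30 against 5.74, 6.74, 6.34, 6.79 and 6.91, a 43.4-fold difference (log2 -5.44, SE 0.34, adjusted p = 0.00113 by limma). Cuedc1 gave -0.46 and -0.39 against 3.13, 2.77, 2.68, 2.73 and 2.81 (-3.25, SE 0.18, adjusted p = 0.000769 by limma). Guk1, the guanylate kinase of nucleotide metabolism, gave 0.31 and 0.25 against 3.58, 3.59, 4.08, 3.06 and 3.10 (-3.20, SE 0.30, adjusted p = 0.00661 by limma). In each of these genes both knockouts lay below every WT array, with gaps of 4.44, 3.07 and 2.75 on the log2 scale. Rnase1, a secreted ribonuclease, Rbm45, an RNA-binding protein, and Cptp, a lipid transfer protein, were lower by 3.00, 2.71 and 2.81. Csn1s1, a casein of milk, was at -0.52 and 0.92 against 4.47, 4.09, 3.39, 4.04 and 6.51, and Spp1, osteopontin, at 2.41 and 4.77 against 6.67, 7.80, 8.11, 8.11 and 8.83. At Csn1s1 and Spp1 the WT arrays were not close together, with SDs of 1.19 and 0.79 (n = 5). Their groups were apart, but neither passed the threshold of limma (adjusted p = 0.079 and 0.051), and in both the αERKO array was the lower of the knockouts. Cap1, an actin regulator, was likewise uneven, at -0.29 and 2.50 against 4.22 to 5.38.

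**Figure D1:**
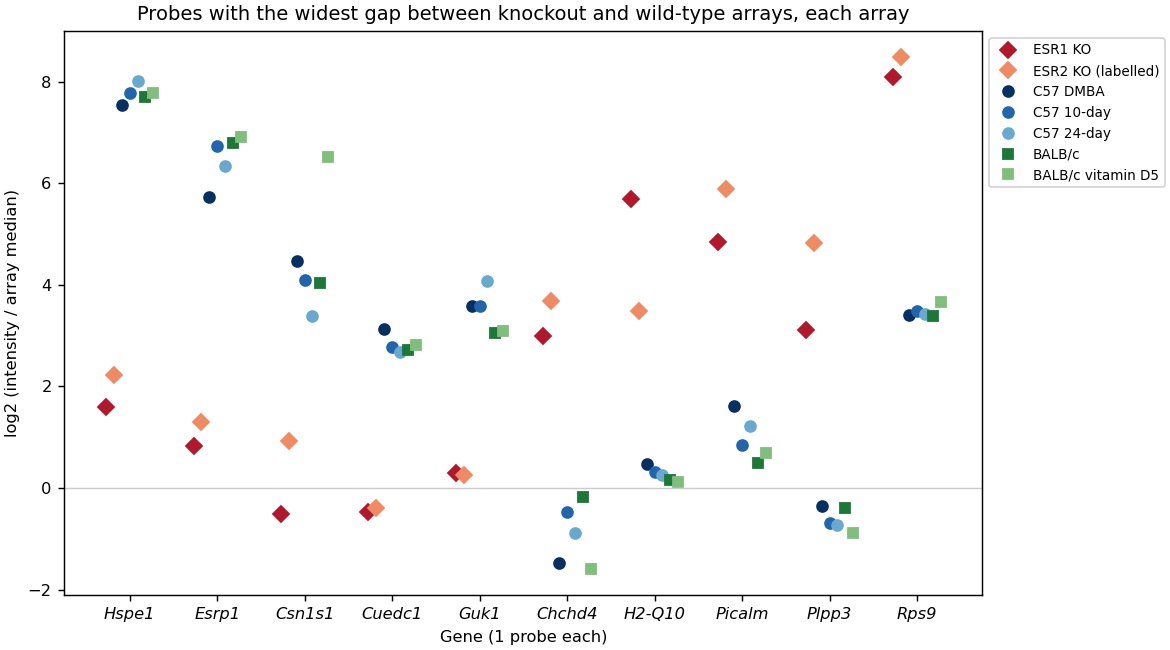
Log2 intensity over the array median (y axis) of the 5 genes each way with the widest gap between groups among probes with a RefSeq symbol and good on all 7 arrays, each point 1 array. Diamonds are the knockout arrays, circles the C57 and squares the BALB/c arrays. At Hspe1 and Rps9 the WT arrays lie close together and the gaps to the knockouts are 5.31 and 4.44 in opposite directions, whereas the knockouts spread at H2-Q10 (5.70 and 3.49) and at Csn1s1 (-0.52 and 0.92).

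Among the same probes the widest gap upward was at Rps9, a protein of the small ribosomal subunit, at 8.10 and 8.49 in the knockouts against 3.41, 3.49, 3.43, 3.39 and 3.67 (28.2-fold, log2 4.82, SE 0.18, adjusted p = 0.000154 by limma). Plpp3, a lipid phosphatase of the plasma membrane, gave 3.11 and 4.82 against -0.35, -0.70, -0.73, -0.39 and -0.88 (4.57, SE 0.43, adjusted p = 0.00661 by limma). Picalm, a clathrin assembly protein, gave 4.84 and 5.89 against 1.61, 0.86, 1.23, 0.49 and 0.70 (4.39, SE 0.39, adjusted p = 0.00562 by limma). The gaps between the lowest knockout and the highest WT value were 4.44, 3.47 and 3.23 on the log2 scale. Chchd4, which imports proteins into the mitochondrial intermembrane space, gave 2.99 and 3.69 against -1.48, -0.47, -0.88, -0.18 and -1.60. H2-Q10, a class I histocompatibility gene, gave 5.70 and 3.49 against 0.46, 0.31, 0.25, 0.16 and 0.12. Its WT arrays had a SD of 0.14 (n = 5), and the αERKO array was the higher of the knockouts. Ribosomal protein genes have many near-identical processed copies in the mouse genome, so that the transcript behind the Rps9 signal is uncertain.

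Several genes were good on both knockout arrays and near background on all 5 WT arrays, so that only a lower bound on the difference can be given, taken against each array's lowest good intensity or the probe's own value where that was higher. There were 115 such probes, and 105 of them were apart, a count that the filter largely fixes, since these probes passed it through the knockouts alone. For the same reason no test is given for them. Thumpd1, a cofactor of tRNA modification, gave 3.89 and 4.50 in the knockouts and was at least 62.8-fold higher. Zfp68, a zinc finger gene, gave 2.34 and 2.86 and was at least 20.5-fold higher, and Nol10, a nucleolar protein, at 1.54 and 2.91, was at least 14.8-fold higher. Hjv, the iron regulator hemojuvelin, and Hrc, a calcium-binding protein of the sarcoplasmic reticulum, had bounds of at least 26.6-fold and 15.3-fold but were carried by the αERKO array, at 6.07 against -0.17 and at 5.21 against -0.81 on the βERKO-labelled array. Both are expressed in striated muscle.

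The reverse case, good on all 5 WT arrays and near background on both knockouts, held for 216 probes, 162 of them apart, with smaller bounds. These passed the filter through the WT arrays alone, so the count is a description. Ifi202b, an interferon-inducible gene, was at least 4.35-fold lower by 1 of its probes, at -1.99 and -1.49 against 1.06, 0.77, 1.13, -0.33 and 0.60. Usp21, a deubiquitinating enzyme, was at least 3.74-fold lower and the ribonuclease gene Ang at least 3.15-fold lower by 1 probe. The other Ang probe, of the same transcript accession and good on all 7 arrays, overlapped, at 2.78 and 3.25 against 2.63 to 3.11. Hyou1, a chaperone of the endoplasmic reticulum, and Itga9, an integrin chain, had bounds of 2.65-fold and 2.61-fold.

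Below these genes, chosen after their values were seen, stood others called by limma. Among those higher in the knockouts, Fgfr1op2 gave 4.21 and 4.68 against -0.32, -0.44, -1.17, -0.73 and -0.81 (adjusted p = 0.000624 by limma). It was good on 3 of the 5 WT arrays. Stn1, of the complex that caps telomeres, gave 3.86 and 3.40 against 0.98, 0.93, 0.98, 0.97 and 0.82 (adjusted p = 0.00142 by limma), with a SD of 0.070 (n = 5) over the WT arrays. Tac1, the precursor of substance P, and Ccl27a, a skin chemokine, were higher by 2.25 and 2.51. Aoc1, diamine oxidase, was higher by 6.60, at 7.59 on the αERKO array and 3.47 on the βERKO-labelled array. It was good on 4 of the 5 WT arrays. Among those lower, Scoc gave -2.31 and -1.03 against 3.13, 2.34, 2.95, 2.08 and 2.11 (-4.19, adjusted p = 0.00972 by limma). The amino acid transporters Slc7a5 and Slc7a1 were lower by 3.45 and 3.19, and Supt16, a histone chaperone of transcription, by 3.58. In these genes 1 knockout value was near background, on the αERKO array for Scoc, Slc7a1 and Supt16 and on the βERKO-labelled array for Slc7a5, so the sizes of their differences rest in part on background. The planar polarity cadherin Celsr1 was lower by 1.96.

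The knockout arrays did not carry these differences equally. Over the 1810 probes apart and lower, the median distance from the WT mean was -0.90 on the αERKO array and -0.60 on the βERKO-labelled array, and over the 2317 apart and higher it was 0.84 and 0.62. The αERKO array was the farther of the pair in 73.8% and 67.8% of these probes. Among the 124 probes called higher, the αERKO array was the farther in 62 and the βERKO-labelled array in the other 62, with medians of 2.74 and 2.56. Among the 100 called lower the αERKO array was the farther in 68. Both arrays were measured against the same WT mean, so these values are set side by side without a test.

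**Figure D2:**
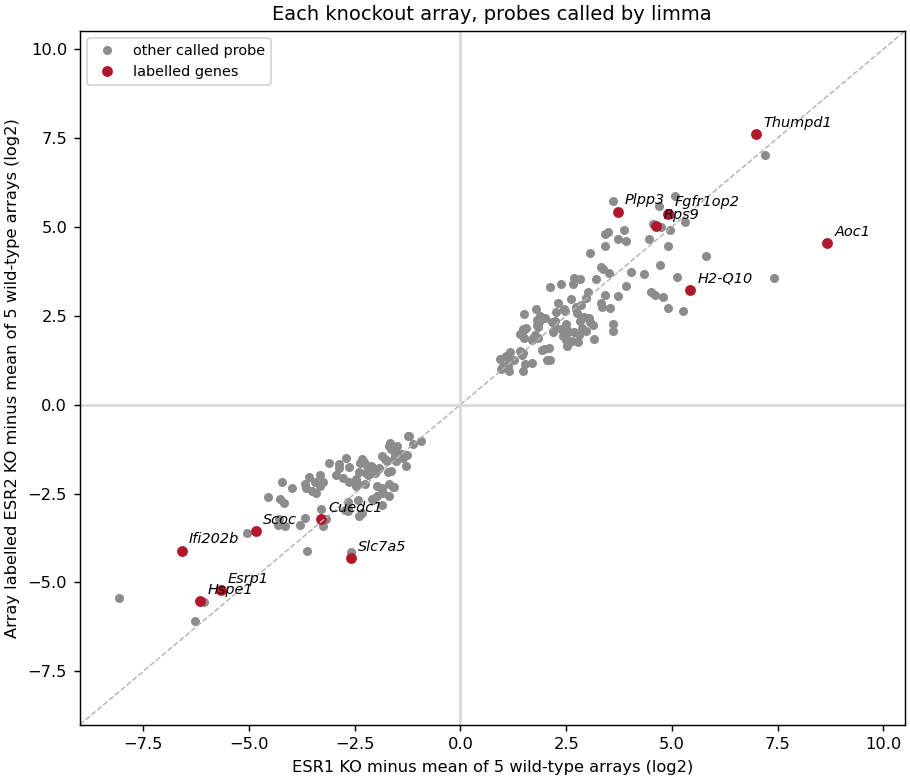
Log2 difference from the mean of the 5 WT arrays on the αERKO array (x axis, ESR1 KO) and on the βERKO-labelled array (y axis, ESR2 KO) for the 224 probes called by limma, each point 1 probe, the dashed line marking equal differences. Hspe1, Esrp1, Cuedc1 and Rps9 lie near the line, Aoc1, H2-Q10 and Ifi202b lie toward the αERKO array, and Plpp3 and Slc7a5 toward the βERKO-labelled array.

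A different pattern held for the genes with the largest differences that limma did not call. Atp2a1, the calcium pump of fast muscle, gave 8.48 on the αERKO array and 2.36 on the βERKO-labelled array, against -0.33, 0.28, 0.06, 0.47 and -0.28. Acta1, skeletal actin, gave 7.81 and 4.86 against 2.54, 1.57, 1.16, 0.75 and -0.68, and Tnni2, fast troponin I, gave 9.22 and 3.47 against 0.74, 1.94, 1.69, 2.09 and 1.90. The αERKO array was far above all others in each, and the βERKO-labelled array lay between it and the WT arrays. Mylpf and Mybpc2, further proteins of fast muscle, followed the same order at 7.58 and 1.88 and at 7.82 and 0.81. Without the αERKO array the Atp2a1 difference was 2.32 and that of Mybpc2 was 1.46, down from 5.38 and 4.97. Of 14 skeletal muscle markers 9 were tested, and 7 of the 9 were apart and higher, against 9.76% of all genes by their brightest probe. The others of the 9, Ttn and Pgam2, were high on the αERKO array and within the WT range on the βERKO-labelled array. Of the 7 apart, 1 was good on 1 of the 5 WT arrays and another on 2. Both passed the filter through the knockouts alone, so the count is a description. Ckm, Myh4 and Tnnt3 were not good throughout either group, and Myh1 and Myh2 matched no probe. The summed linear level of the 9 markers over the array median was 2525 on the αERKO array, 53.8 on the βERKO-labelled array and 9.11 to 11.6 on the WT arrays. The lowest adjusted p among the muscle genes was that of Acta1 (0.076 by limma). In such bulk samples more cells of a type and more RNA per cell cannot be told apart. The part of muscle tissue in the wider differences was not tested.

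Genes of fat were graded in another order. Adipoq, the adipocyte hormone adiponectin, gave 9.35 and 9.21 against 8.88, 5.45, 8.05, 4.66 and 2.71, and Plin4, a lipid droplet protein, gave 6.75 and 5.74 against 5.29, 1.40, 3.54, 1.00 and 0.13. Fabp4, the adipocyte fatty acid carrier, was apart by a gap of 0.14 and the β3-adrenergic receptor gene Adrb3 by 0.45. These were the 4 of 14 adipocyte markers tested that were apart, all higher, and the median over the 14 was 2.19 against -0.03 over all genes. The leptin gene Lep and the genes Retn and Cfd, for resistin and adipsin, overlapped with the C57 array with DMBA. The summed adipocyte level was 3702 and 1951 in the knockouts and 346 to 2407 on the WT arrays, the C57 array with DMBA being the highest of these and above the βERKO-labelled array. A second, dimmer probe for Plin4 overlapped, at 2.34 and 2.54 against -2.22 to 2.55. The part of fat in the wider differences was not tested. The liver-type urinary protein Mup1, at 9.56 and 6.34 against 6.01, 1.38, 1.10, 0.99 and 0.82, and the fibroblast gene Dpt, at 7.13 and 4.40 against 3.82, -0.61, 1.08, 0.32 and 0.66, showed a high C57 array with DMBA as well. Mup genes are a large family of near-identical copies, so that the Mup1 signal is uncertain as to its gene. Nrg4, an EGF family ligand made by fat, gave 6.48 and 4.82 against 3.78, 0.01, 2.67, -0.70 and -0.60.

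**Figure D3:**
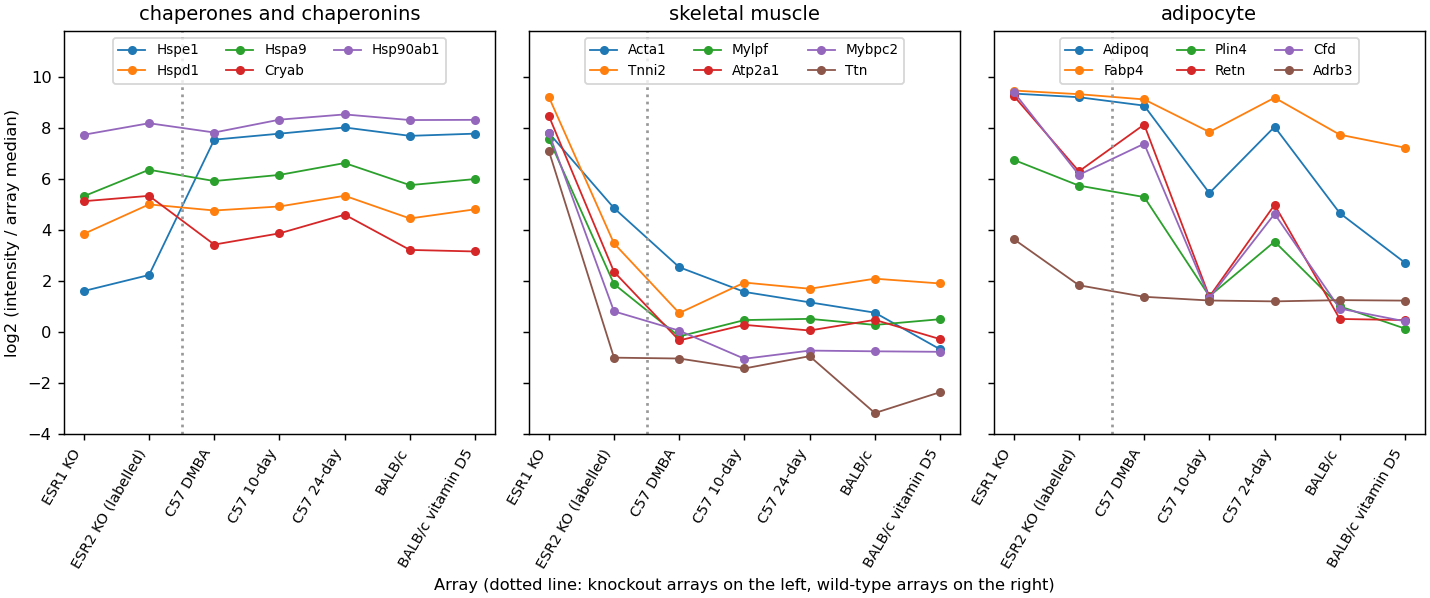
Log2 intensity over the array median (y axis) of chaperone, skeletal muscle and adipocyte genes on the 7 arrays (x axis), with lines joining the points of 1 gene and a dotted line between the knockout and WT arrays. Hspe1 lies at 1.60 and 2.23 in the knockouts while Hspd1 lies at 3.85 and 5.00, muscle genes peak on the αERKO array, and adipocyte genes vary across the WT arrays.

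Of the other cell type marker lists, most had no member or 1 member apart, beside 14.5% of all genes by their brightest probe. None of 14 luminal epithelial markers and none of 9 basal and myoepithelial markers tested was apart, with medians of -0.63 and -1.16, and the summed luminal level was 597 and 1128 in the knockouts against 784 to 1541. The epithelium of the labelled tissue was present on all arrays: Krt18, a luminal keratin, gave 7.38 and 8.12 against 7.42 to 8.59, and Epcam 6.29 and 7.33 against 6.98 to 7.72. T cell markers were led by the αERKO array alone: Cd3d, of the T cell receptor complex, gave 3.49 on it against -0.45 on the βERKO-labelled array and -1.23 to -0.48 on the WT arrays, and 2 of 4 tested T cell genes were apart. Cd3d was good on 4 of the 5 WT arrays, so it passed the filter through the knockouts alone. In the erythroid list neither of the genes tested was apart. Of 6 Schwann cell genes tested 3 were apart and higher, among them S100b and Mbp by gaps of 0.93 and 0.05. No marker list for endothelial cells or macrophages had a member apart.

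The lists tied most directly to the receptors had no member apart, beside 14.5% of all genes by their brightest probe. At that share lists of this size would hold few such members, so no lack of effect is read from these counts. Of 20 estrogen-responsive genes tested, including the progesterone receptor Pgr, amphiregulin Areg and the co-repressor Nrip1, 0 were apart, with a median of 0.05. Pgr gave 0.95 and 0.09 against 0.69, -0.70, -0.03, -0.18 and -0.35, a difference of 0.64 (SE 0.40, adjusted p = 0.44 by limma). The membrane estrogen receptor gene Gper1 gave 0.40 and -0.13 against 0.11, -0.50, -0.22, -0.55 and -0.24, a difference of 0.42 (SE 0.25, adjusted p = 0.42 by limma). For both genes 1 knockout array was above the WT range and the other inside it. Of 12 receptors, related receptors and coregulators tested, including the coactivators Ncoa1 and Ncoa3, 0 were apart and the median was -0.07. In the EGF family, Nrg4 and Egf were apart and higher, of 11 genes tested, and the receptors Egfr and Erbb2 overlapped at 0.19 and -0.47. Egf read -0.63 and -1.34 in the knockouts and was good on 1 of the 5 WT arrays, so its separation rests in part on background.

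**Figure D4:**
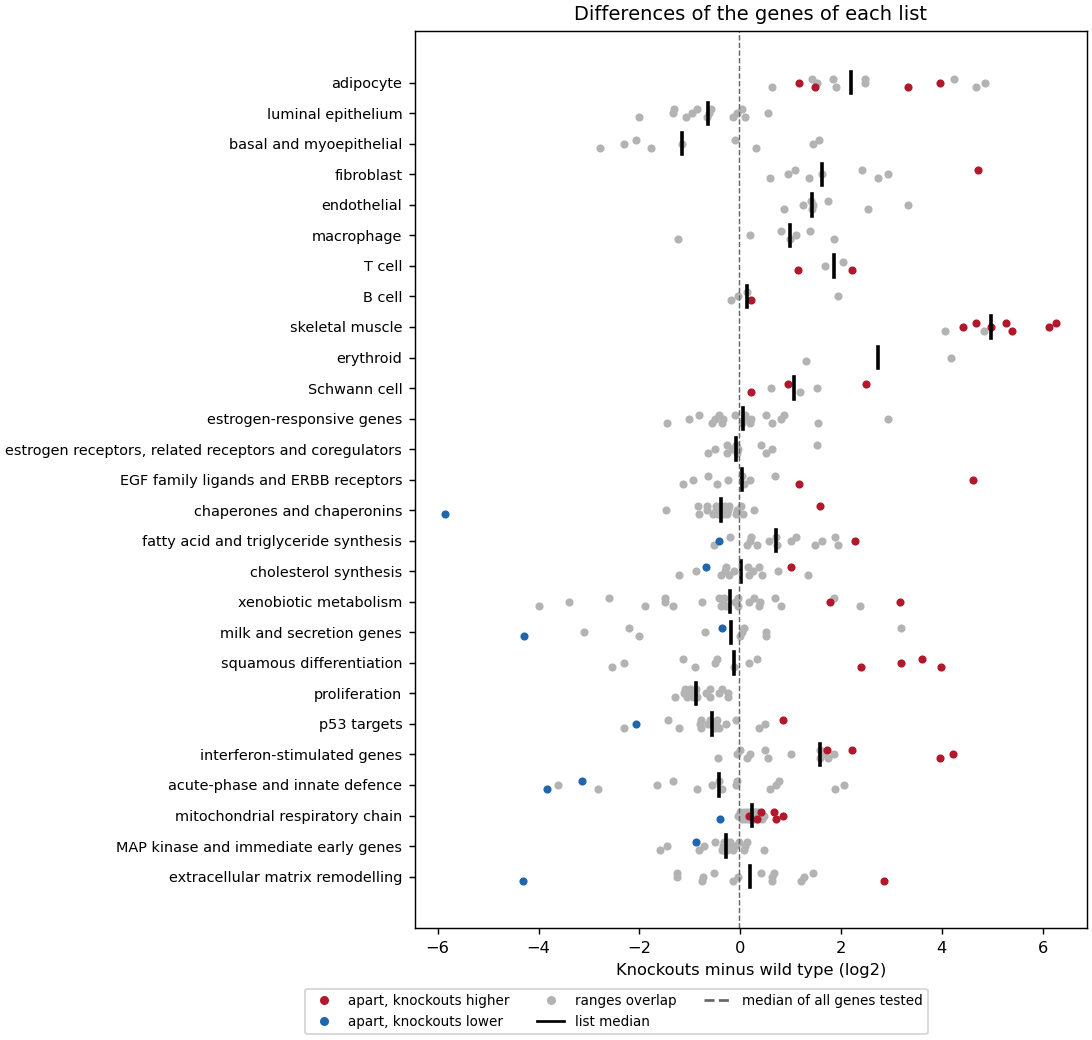
Log2 difference of the knockout mean from the WT mean (x axis) for each tested gene of 27 lists (rows), 1 point a gene by its brightest probe, red where apart and higher, blue where apart and lower, gray where ranges overlap. Black bars are list medians, from -1.16 for basal and myoepithelial to 4.97 for skeletal muscle, and the dashed line is the median of all genes at -0.03.

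Across 10890 genes by their brightest probe, 1575 were apart (14.5%), 1063 higher (9.76%) and 512 lower (4.7%), and the lists are read against these shares. Squamous differentiation had 4 of 13 tested genes apart, all higher, and 2 of them called by limma. The latter were Cdsn, which joins cornified cells, at 2.89 and 3.07 against -1.48, -0.12, -1.48, -0.37 and 0.37 (adjusted p = 0.0329 by limma), and involucrin (Ivl), at -0.20 and 0.52 and near background on all WT arrays (at least 3.84-fold higher). Involucrin passed the filter through the knockouts alone, as did Cdsn, good on 4 of the 5 WT arrays, so nothing is read from these calls. The others were Ly6d at 7.31 and 7.18 against 0.59, 4.80, 2.02, 4.08 and 4.87, and Sprr1a at 3.55 and 5.33 against 1.19 to 2.73. The keratin genes Krt6a and Krt16 of the same list overlapped with differences of -0.90 and -1.13, so that its median was -0.13. Among interferon-stimulated genes 4 of 17 were apart and higher: Oasl2 (3.96, adjusted p = 0.0388 by limma), Ifit3 (4.22), Usp18 (2.22) and Bst2 (1.72). Ifit3 was good on 2 of the 5 WT arrays, Oasl2 on 3 and Usp18 on 4. These passed the filter through the knockouts alone, so the sizes of their differences rest in part on background.

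Of 32 respiratory chain genes 6 were apart and higher and 1 lower, with differences from -0.39 for Uqcrc1 to 0.85 for Ndufb3, and the median of the list was 0.24. The others apart and higher were Sdhc, Sdha, Ndufa1, Cox4i1 and Cox6a1. Of 27 chaperones, Hspe1 was apart and lower and the small heat shock protein gene Cryab apart and higher, by 1.58. None of 17 proliferation genes was apart, with a median of -0.87. Acute-phase genes Saa1 and Saa2 were lower, at -1.70 and 0.91 against 2.39 to 4.58 and at -2.63 and -0.14 against 0.43 to 3.49. Neither was called (adjusted p = 0.12 and 0.22 by limma). Their αERKO values were near background, so both probes passed the filter through the WT arrays alone and the sizes rest in part on background. In fatty acid synthesis Acss2, which makes acetyl-CoA, was higher at 4.71 and 4.69 against 3.42, 1.94, 2.37, 2.30 and 2.12 (2.27, adjusted p = 0.053 by limma). Aldh1a1 and Ephx2, of xenobiotic metabolism, were higher by 1.78 and 3.16, and Sc5d, of cholesterol synthesis, by 1.00. Lss of the same pathway was lower by 0.67, Fas and Perp among p53 targets went opposite ways at 0.85 and -2.06, Mapk8 was lower by 0.88 and the protease gene Adamts5 higher by 2.85. Adamts5 was good on 1 of the 5 WT arrays, so the size of its difference rests in part on background. Smaller gaps held for Mlxipl (-0.42), Csn1s2b (-0.35) and the B cell gene Cd79a (0.21).

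Probes for the same gene showed whether a difference was seen by 1 probe or by the gene. There were 651 pairs of tested probes from 610 genes, 598 of the pairs sharing an accession, and the SD of disagreement between the probes of a pair, per probe, was 0.50 on the log2 scale. For a probe that was apart, the other probe was apart the same way in 76 of 195 cases (39.0%), overlapped with the same sign in 74, overlapped with the opposite sign in 37 and was apart the opposite way in 8. These cases come from 153 pairs, since a pair with both probes apart counts from each side. Over all probes tested 9.99% were apart and higher and 7.81% apart and lower. For a called probe the other was apart the same way in 7 of 15 cases, and the median difference of 2.55 for the called probe compared with 0.80 for the other.

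Several of the step-like differences were not shared by the other probe of the gene. Picalm gave a difference of 4.39 by 1 probe and 0.38 by the other, which read 6.10 and 6.72 against 6.30, 5.93, 6.25, 5.85 and 5.80. Plpp3 gave 4.57 and 1.16, the latter with overlapping groups. Hyal2, a hyaluronidase, gave 4.86 and -0.17, and the second probe read 2.10 and 2.81 against 2.81, 2.65, 2.77, 2.27 and 2.63. The overlapping probes of Picalm, Plpp3 and Hyal2 were good on all 7 arrays. Ppih, a spliceosomal cyclophilin, was apart in opposite directions at 3.59 and -0.76. The Hyal2 probe at 4.86 was good on 2 of the 5 WT arrays and the Ppih probe at 3.59 on 3, so these sizes rest in part on background. Ints1, of the Integrator complex, gave 3.09 (adjusted p = 0.000619 by limma) and -0.23. The embryonic globin gene Hbb-y gave 5.50 by a probe at 7.78 on the αERKO array and -0.03 on the βERKO-labelled array, and -0.30 by another. The former probe was good on 1 of the 5 WT arrays. Whether the probes of such a pair reach different transcripts was not tested.

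Other genes were apart by every probe. In 29 of 551 genes with 2 or more tested probes, all probes were apart the same way, 22 higher and 7 lower. Ifi202b was lower by 5.35 and 2.39, the former probe at -2.43 and 0.06 against 4.49, 4.39, 4.35, 3.55 and 4.04. Dnajb13, a cochaperone of the axoneme, was higher by 2.79 and 2.03, both called (adjusted p = 0.0104 and 0.0144 by limma). The Dnajb13 probe at 2.79 was good on 4 of the 5 WT arrays. Gldc, of the glycine cleavage system, was higher by 3.67 and 3.15, Tcea3, an elongation factor, by 2.82 and 2.45, the carboxylesterase Ces1f by 2.49 and 2.33, and the lectin receptor gene Cd302 by 2.24 and 2.33. In Gldc and Tcea3 both probes were higher on the αERKO array than on the βERKO-labelled array, and most Gldc values on the WT arrays were near background. The Tcea3 probe at 2.45 was good on 1 of the 5 WT arrays and the Ces1f probe at 2.49 on 4. These sizes therefore rest in part on background. Tceal1 was higher by 1.05 and 1.09, both called (adjusted p = 0.046 and 0.0467 by limma). Among those lower, the ferritin receptor gene Scara5 differed by -2.01 and -1.33, the G-patch gene Gpatch11 by -1.66 and -0.80, the epithelial factor Grhl1 by -0.74 and -1.15 and the scaffold gene Tanc1 by -0.80 and -0.63. Of these, 1 Gpatch11 probe and 1 Ifi202b probe were called by limma (adjusted p = 0.0123 and 0.013). The Ifi202b call is a description only, since its probe passed the filter through the WT arrays alone.

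**Figure D5:**
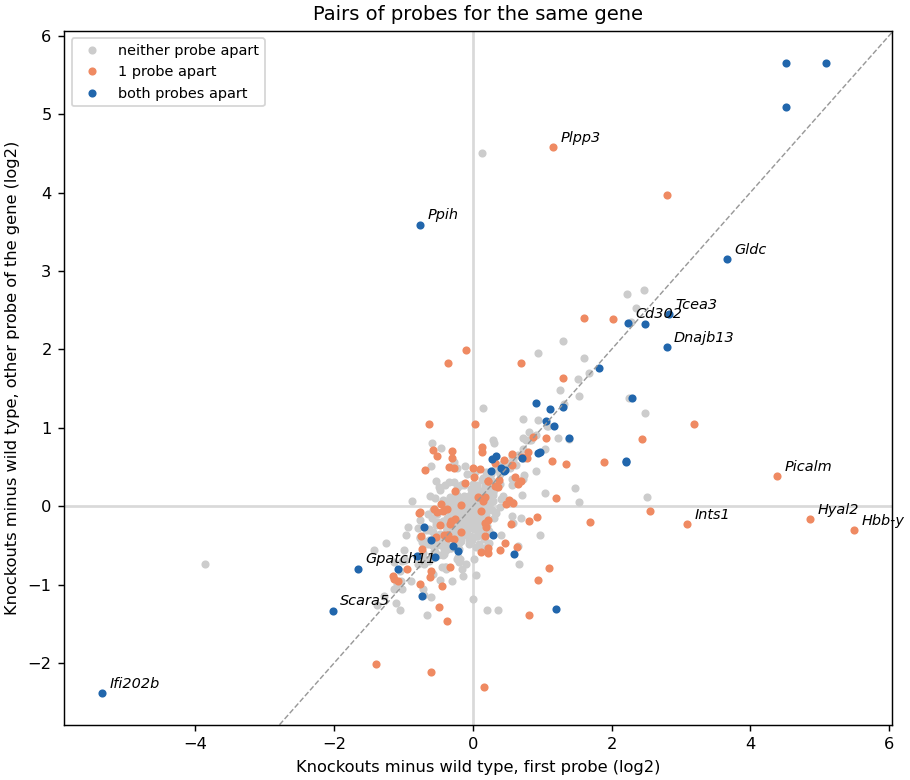
Log2 difference of the knockout mean from the WT mean by 1 probe (x axis) and by another probe of the same gene (y axis) for 651 pairs, each point 1 pair, blue where both probes were apart, orange where 1 was and gray where neither was, with the dashed line marking equal differences. Ifi202b, Gldc, Tcea3 and Dnajb13 are shared by both probes, whereas Picalm, Hyal2, Ints1 and Hbb-y lie along an axis and Ppih lies on opposite sides. In each of the genes shared by both probes, at least 1 probe had values near background. The 3 pairs at the upper right are probes of 1 accession without a RefSeq symbol.

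The genes next to each receptor gene in the RefSeq table were measured as well. Of 9 measured genes within 10 on either side of Esr1, 2 were apart, both higher, and the lowest adjusted p was 0.12 (limma). Over all genes by their brightest probe 14.5% were apart, so counts this small are not read as a result. Myct1 gave 2.96 and 3.26 against 2.16, 0.27, 0.37, 0.45 and 0.11 (2.44, adjusted p = 0.12 by limma), and Armt1, the gene 2 places away on the other side, gave 0.16 and 0.59 against -0.46 to -0.02. The immediate neighbour Syne1 overlapped with a difference of 0.05. Rmnd1, Akap12, Mthfd1l, Fbxo5, Mtrf1l and Ppp1r14c overlapped as well, with differences from -0.75 to 1.01. Of 10 genes around Esr2, Zbtb25 alone was apart, by the gap given above, and Sptb gave -0.41 and 0.17 against 0.13 to 2.06. The genes Sgpp1, Rhoj, Ppp2r5e, Syt16, Tex21, Mthfd1, Hspa2 and Plekhg3 overlapped, with differences from -0.78 to 0.22.

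Some called genes were neighbours of each other, a set chosen after their values were seen. Over all genes by their brightest probe 9.76% were apart and higher and 4.7% apart and lower. Around Ly6e, 4 of the 5 other genes measured within 10 places were apart and higher, all of the Ly6 family of surface proteins: Ly6k (2.93), Ly6a (2.41), Ly6d (3.98) and Lynx1 (1.64), whereas Ly6f overlapped. Ly6e itself gave 6.75 and 7.35 against 5.44, 5.56, 5.27, 4.92 and 5.14, and it and Ly6k were called by limma (adjusted p = 0.0244 and 0.0213). The Ly6k probe was good on 3 of the 5 WT arrays and passed the filter through the knockouts alone. Its size rests in part on background and its call is a description only. Around H2-Q10, 3 of 11 were apart and higher, H2-Q7 at 2.87 and 0.46, H2-Q2 at -0.94 and -0.21, and Cdsn. Their WT values ran from -11.03 to -0.57 for H2-Q7 and from -6.36 to -1.72 for H2-Q2, at or close to background, so no fold is given. Stn1 and Sfr1, a cofactor of DNA recombination, lie 3 places apart and rose by 2.69 and 2.67, while Slk and Col17a1 between them overlapped (-0.26 and -0.10). Near Hspe1, the splicing factor gene Sf3b1 was lower, at -1.54 and -0.78 against 0.89, 0.93, 1.13, 0.34 and 0.93 (adjusted p = 0.0278 by limma), while Hspd1, which lies between them, overlapped, as did Mob4 on the other side at -0.08. The αERKO value of Sf3b1 was near background. Its probe passed the filter through the WT arrays alone, so its call is a description only. Around Rps9, 1 of 13 was apart and higher and 2 were apart and lower, counts too small to set against these shares. The nearest, Tsen34, differed by 0.18. Members of the Ly6 and H2-Q families are close in sequence, so that their probes may share target RNA.

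Upstream windows of 250 bases were available for 825 of the genes apart and higher and 403 of those apart and lower, and were searched on both strands. The full palindromic estrogen response element occurred in 1 of 8685 windows of tested genes, that of Hbb-y, and in 18 of 27025 windows in the table.
Hbb-y, chr7:103853281-103853309, minus strand: ggaccacgGGTCAGGCTGACCaatagctt
It is shown, with the element in capitals, as the only tested gene with the full element, and its probes disagreed as given above. The half-site AGGTCA was in 14.8% of windows of genes higher, 11.2% of genes lower and 14.0% of all genes tested. The AP-1 element TGANTCA stood at 6.30%, 5.71% and 6.44%, and the cyclic AMP response element TGACGTCA at 2.79%, 1.99% and 2.67%. The SP1 element GGGCGG was in 51.3% of windows of genes higher and 62.8% of genes lower, against 58.5% of all genes tested and 35.4% of all windows in the table. CCAAT was in 42.5%, 41.4% and 40.2%. The heat shock element of the Hspe1 window was in 0.461% of windows of genes tested. The window of Rps9 held the cyclic AMP response element, shown here in capitals for the named gene, good on all 7 arrays, with the widest gap upward.
Rps9, chr7:3703973-3704002, plus strand: gcggtgcgtgaTGACGTCActacaaggcga
None of these shares was tested, and a full element can overlap a half-site.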

How the data were processed

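RNA of 7 gland samples was hybridized by the authors to a 1-colour CodeLink array of mouse oligonucleotides and read through Cy5-streptavidin. The deposited tables give, per spot, an intensity (spot mean less local background median, unnormalized), the software's normalized intensity (the former over an array constant) and a quality flag. GeneSpring processing followed in the study; the deposited series table of normalized intensity was used in 1 alternative only. No tested value is a count, and the number of arrays limits the precision.

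Gene probes were kept where flagged good on all arrays of 1 group (2 receptor knockout or 5 wild type). Intensities were divided by the array's median over 34967 gene probes, non-positive intensities were set to the smallest positive one on that array, and log2 was taken. Ranges were compared, and limma 3.58.1 (R 4.3.3; lmFit and eBayes) was run on 23187 probes with Benjamini-Hochberg adjustment and no covariate. Residual degrees of freedom were 5. The script was tested on simulated data. Symbols came from RefSeq's table (GRCm38.p6), which matched 14763 of 15553 probes with a RefSeq accession; the files name no build, so its coordinates are printed only for its own promoter windows. A gene with several probes was given in lists by the brightest.

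Named were Esr1, Esr2, Gper1, Pgr and Hspe1; by probes with a RefSeq symbol and good on all 7 arrays, the 10 genes each way with the largest difference and the 5 with the widest gap; the 5 each way with the largest bound; the 5 each way with every probe apart; the 5 with most disagreement between probes; up to 4 members apart per list; and 10 genes on each side of Esr1 and Esr2. The members, the 27 lists (471 genes, 11 of the lists cell type markers) and the tests were chosen with earlier results of these data known, and no count over a list is independent support. Alternatives covered normalization, background, filters, a floor, each array left out, strain, culture time, limma options and thresholds. Leaving out probes with other flags and using the series table were added after seeing the data. Results for 2 of the genes the rule or the tests named are not reported here.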

Additional observations from a re-analysis of the deposited data

Results flagged for a closer look

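Among the 25 genes named for their difference, their gap or in advance, 2 had a WT array that stood away from the other 4 by more than the 95% limit of Dixon's ratio for 5 samples, and chance alone gives about 1 in 20. The C57 array with DMBA was the highest at Mup1, at 6.01 with a ratio of gap to range of 0.893, and without it the knockouts would lie far above the WT arrays, at 9.56 and 6.34 against 0.82 to 1.38. The same array was the highest at Cuedc1, at 3.13 with a ratio of 0.712, which lies on the side away from the knockouts at -0.46 and -0.39.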

How the results depend on the processing

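Probes apart fell from 4127 to 1513 with a 2-fold difference required as well and to 322 with a gap over 1, and rose to 11693 against the BALB/c arrays alone, which leaves 2 arrays on each side. Leaving out 1 array gave 4324 to 14873 apart, with the αERKO array (8488), the βERKO-labelled array (14873) and the C57 array with DMBA (7636) moving it by over 1.5 times. Genes with a probe apart, 1618 at first, ran from 1691 to 7185 when 1 array was left out (3560, 7185 and 3437 for these arrays) and reached 5260 against BALB/c alone. Members of the lists apart, 52 at first, ran from 53 to 248 (112, 248 and 132) and reached 211. The share of other probes apart the same way, 39.0% at first, ran from 38.0% to 66.1% (51.3%, 66.1% and 48.6%) and was 54.8% against BALB/c alone. Probes called by limma, 224 at first, were 105 with probes good on all 7 arrays, 122 with good on at least 1, 114 with no filter, 105 with strain as a covariate, 27 against C57 arrays alone and 88 with 24-day arrays alone, and 412 at an adjusted p under 0.1. Against BALB/c alone limma called 0, with 3534 at an unadjusted p under 0.05. Leaving out 1 array gave 88 to 2482 called: 131 without the αERKO array, 2482 without the βERKO-labelled array, 629 without C57 with DMBA, 88 without C57 10-day, 142 without C57 24-day, 111 without BALB/c and 105 without BALB/c with vitamin D5. Of the probes apart 56.1% were higher in the knockouts at first, 44.1% with an offset of 50 and 43.5% with normexp.

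Across 62 named probes and 24 settings the difference turned sign in 3 cases: the overlapping Hyal2 probe (0.010 against BALB/c alone, and -0.53 without the βERKO-labelled array to 0.19 without the αERKO array) and the second Plpp3 probe (-0.040 without the βERKO-labelled array to 2.36 without the αERKO array). Hspe1, Rps9 and Esrp1 were called in 23 of 24 settings, the exception being BALB/c alone. Other calls were less stable: H2-Q10 and Rbm45 were called in 17 of 24 settings and Rnase1 in 14 of 24. Thumpd1 (15 of 23) and Usp21 (12 of 23) passed the filter through 1 group alone, so nothing is read from their calls. The series table, with no filter, gave 5157 of 35949 entries apart. The causes of these changes were not tested. No paired analysis was possible because the labels number no replicates. The low signal over background limits what near-background probes such as Esr1 and Esr2 can show, and 1 array a knockout leaves each genotype without a replicate.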

Other observations

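Probes without a RefSeq symbol were apart more often than those with one, 21.1% of 11727 against 14.4% of 11460, and they split differently: 48.7% of the unnamed and 67.3% of the named probes apart were higher in the knockouts. The unnamed probes were also dimmer, with a median log2 level of 0.65 against 2.24. By chromosome, the share of named probes apart ran from 9.43% on chromosome 16 to 20.1% on chromosome 14, and was 14.7% on chromosome 10, which holds Esr1, and 13.6% on chromosome 12, which holds Esr2.

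The WT array nearest to the knockouts was the C57 array with DMBA for 41.1% of probes apart and higher and 47.0% of those apart and lower. Among probes not apart, the same array was the nearest extreme in 40.6% with the knockout mean higher and 47.4% with it lower, a share close to that of the probes apart. Among probes lower in the knockouts the C57 24-day array was the nearest in 24.1% of those apart and 11.3% of those not apart, and the BALB/c array in 14.8% and 27.7%. These shares were not tested.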
